A study of Mus musculus with 8 samples.

Results

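The 10 genes described here encode the inflammasome and pyroptosis machinery, Nlrp3, Nek7, Pycard, Casp1, Casp4, Casp8, Gsdmd, Gsdme, Ninj1 and Il18. They were chosen by name, and all 10 were found among the 56859 genes of the deposited table. RNA was sequenced from BV2, an immortalized mouse microglial line that the labels give as WT. All 8 libraries came from cells deprived of oxygen and glucose for 9 h and then returned to oxygen, so none is from undeprived cells. The 10panx1 group at 9 h (3 libraries) was given the peptide 10panx1, which blocks pannexin 1 channels, and the control group at 9 h (3 libraries) did not. At 6 h there were 1 10panx1 library and 1 control library. For the 6 h library with the peptide, the title names it and the treatment label does not, and the title was followed. The labels name no control peptide, do not give the starting point of the 6 h and 9 h, and do not state that replicates were separate cultures, so each p-value reflects variation among these libraries and part of it may be technical.

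An inflammasome is a cytosolic platform on which a sensor recruits an adaptor and activates a caspase. Nlrp3 is the sensor that responds to the loss of potassium from a cell, and the kinase Nek7 binds it during assembly. Pycard, the adaptor also called ASC, links the sensor to caspase 1, which cleaves gasdermin D and matures interleukin 1 beta and interleukin 18. The freed end of gasdermin D forms pores in the plasma membrane, and Ninj1 then ruptures it. In microglia, release of ATP through pannexin 1 channels is a known route to activation of Nlrp3. These steps are largely set by protein cleavage and assembly, which RNA levels do not measure.

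Total counts ran from 18056693 to 23164860 per library. A count of 3 in a library then corresponded to between 0.131 and 0.159 CPM, the unit used below for counts scaled by TMM to a common library size, and count intervals and this floor cover counting error only. Of the microglial and macrophage markers, Csf1r lay between 281 and 373 CPM and Cd68 between 483 and 669 CPM. Tmem119 and Aif1 reached at most 1.48 and 3.48 CPM, both in the control library 3 at 9 h, and at most 1.18 and 1.23 CPM in the other libraries, and P2ry12 and Fcrls at most 0.491 and 0.262 CPM, so several markers of microglia in tissue were at or near 0 in this line. The summed level of the 12 microglial and macrophage markers was 1456 to 1493 CPM in the 10panx1 libraries and 1364 to 1426 CPM in the control libraries at 9 h, and 1626 and 1596 CPM in the 10panx1 and control libraries at 6 h. The control library 3 at 9 h stood apart, with 82 genes of at least 20 counts that exceeded 10 times the count of any other library, against at most 1 in each other library. Its summed hepatocyte markers reached 214 CPM, against at most 3.48 CPM in the other 7 libraries, and its summed fibroblast markers 41 CPM, against at most 1.57 CPM. Hpx made up 157 CPM of the first sum and Col1a1 29.1 CPM of the second. Apoa1 (0.105 CPM), Ambp (2.21 CPM) and Dcn (0 CPM) did not exceed their highest levels in the other libraries (0.24, 2.4 and 0.0948 CPM). The part of these markers in the results was not tested.

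The bases before the transcript starts are shown first for some of the genes, among them Casp4, which was called in no main comparison below. RefSeq windows of 250 bases (build GRCm38.p6, a different build from the deposited table's coordinates) were found for 9 of the 10 genes, with 11 windows in all. Gsdmd had no entry and is named only. A set of 6 motifs was searched on both strands. Capitals mark matches to the NF-kappaB consensus, to the hypoxia response core ACGTG and to the PU.1 motif GAGGAAG, and overlapping matches run together. The 2 Nlrp3 windows, the Casp1, Casp4 and Gsdme windows follow, each 5' to 3' on the strand of the gene.
Nlrp3, upstream start, chr11:59541319-59541568, plus strand: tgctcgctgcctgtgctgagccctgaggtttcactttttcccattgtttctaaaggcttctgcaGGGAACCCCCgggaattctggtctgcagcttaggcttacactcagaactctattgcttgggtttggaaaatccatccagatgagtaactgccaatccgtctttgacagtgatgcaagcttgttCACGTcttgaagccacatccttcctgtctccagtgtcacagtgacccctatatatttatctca
Nlrp3, downstream start, chr11:59542436-59542685, plus strand: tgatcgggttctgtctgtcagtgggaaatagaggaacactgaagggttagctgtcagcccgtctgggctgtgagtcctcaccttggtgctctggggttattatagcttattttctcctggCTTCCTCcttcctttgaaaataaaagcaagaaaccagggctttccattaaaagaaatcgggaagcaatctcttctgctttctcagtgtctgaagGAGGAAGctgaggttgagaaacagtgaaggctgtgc
Casp1, chr9:5298267-5298516, plus strand: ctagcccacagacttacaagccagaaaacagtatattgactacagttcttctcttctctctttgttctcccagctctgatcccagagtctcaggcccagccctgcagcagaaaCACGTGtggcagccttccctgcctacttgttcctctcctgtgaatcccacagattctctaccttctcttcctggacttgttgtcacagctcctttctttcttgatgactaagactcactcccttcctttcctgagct
Casp4, upstream start, chr9:5308599-5308848, plus strand: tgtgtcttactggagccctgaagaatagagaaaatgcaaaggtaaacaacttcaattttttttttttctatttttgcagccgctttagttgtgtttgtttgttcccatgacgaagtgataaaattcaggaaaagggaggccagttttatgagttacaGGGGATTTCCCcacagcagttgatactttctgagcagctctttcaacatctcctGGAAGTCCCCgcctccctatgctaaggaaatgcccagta
Gsdme, chr6:50261770-50262019, minus strand: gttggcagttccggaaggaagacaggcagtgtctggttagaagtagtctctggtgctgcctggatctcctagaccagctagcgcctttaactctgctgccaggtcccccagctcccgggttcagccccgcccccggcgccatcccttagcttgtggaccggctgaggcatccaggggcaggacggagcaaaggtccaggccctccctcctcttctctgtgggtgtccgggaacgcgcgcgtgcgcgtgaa

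The upstream Nlrp3 window held the NF-kappaB match GGGAACCCCC at 186 bases before the start and the core CACGT at 63 bases. The downstream Nlrp3 window held PU.1 matches at 130 and 36 bases before the start. The Casp1 window held the palindrome CACGTG, which matches the hypoxia response core on both strands, at 137 bases before the start. The Casp4 window held GGGGATTTCCC, which contains a pair of overlapping NF-kappaB matches, at 93 bases and GGAAGTCCCC at 39 bases before the start. The Gsdme window held none of the motifs, and neither did the windows of Casp8, Nek7, Il18 and Ninj1, which are not shown. Across all 32851 RefSeq mouse windows of this length, the NF-kappaB consensus was found in 7.25%, the hypoxia response core in 16.6% and the PU.1 motif in 10.6%. The AP-1 motif TGANTCA (6.75% of windows), the interferon-stimulated response element (2.98%) and the cyclic AMP element TGACGTCA (1.55%) were in no window of these genes. The PU.1 motif was also in the Pycard window. A match describes the letters only.

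In the deposited table, Casp1 (ENSMUSG00000025888) lies on the plus strand of chromosome 9 from 5298508 to 5307290, and Casp4 (ENSMUSG00000033538) follows it on the same strand from 5308828 to 5336783. Il18 is on chromosome 9 as well, Casp8 and Nek7 are on chromosome 1, Gsdme on 6, Pycard on 7, Nlrp3 on 11, Ninj1 on 13 and Gsdmd on 15. These positions are as the table has them, without a build. All 10 are annotated there as protein-coding. Casp1 and Casp4 are thus neighbours.

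Nlrp3 was the most abundant of the 10 transcripts at 9 h and Pycard was almost undetected. Levels between genes are compared in TPM, which accounts for transcript length, over the 6 libraries at 9 h. Nlrp3 averaged 236 ± 19.4 TPM (SD, n = 6) and ranked 716 of the 27104 genes with a TPM above 0. Ninj1 followed at 156 ± 5.11 TPM, and then Casp8 at 76 ± 5.07 TPM and Gsdmd at 74.1 ± 2.36 TPM, whose ranges overlapped. Casp1 averaged 31.2 ± 1.01 TPM, Nek7 23.1 ± 1.42 TPM and Casp4 12.3 ± 0.521 TPM, each clear of its neighbours. Gsdme at 9.91 ± 1.62 TPM and Il18 at 7.53 ± 1.29 TPM overlapped. Pycard averaged 0.287 ± 0.102 TPM, and its highest library (0.472 TPM) lay below the lowest Il18 library at 9 h (5.44 TPM).

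**Figure D1:**
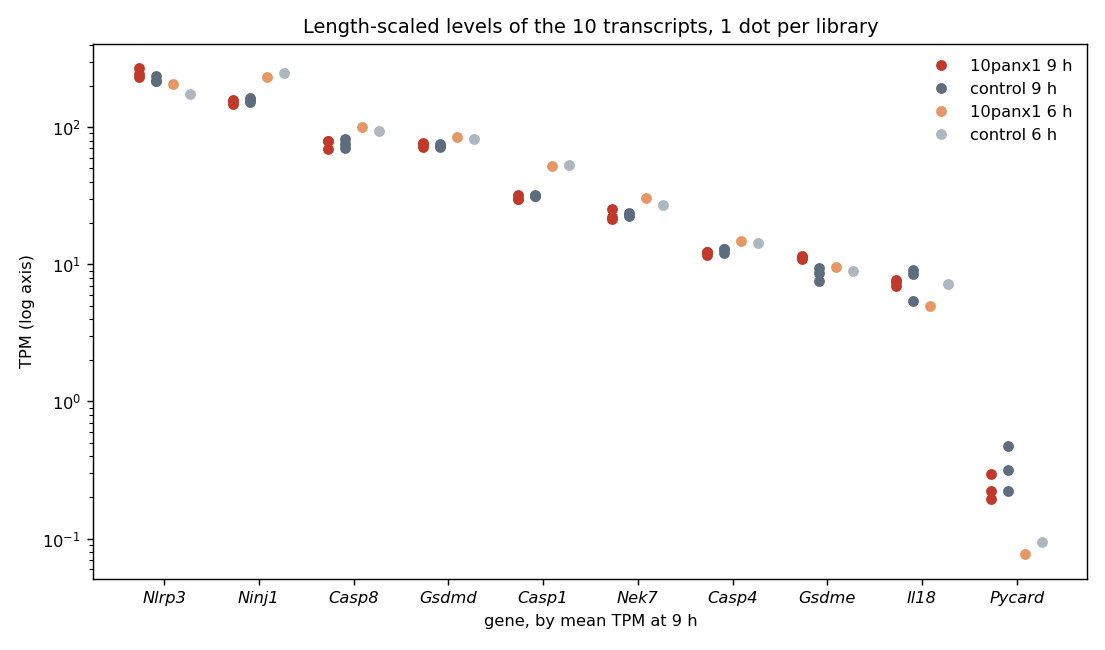
TPM (log axis) of the 10 genes in each library, with the genes in order of their mean level at 9 h and a colour per group. Nlrp3 lies highest at 9 h (216 to 269 TPM), Casp8 and Gsdmd overlap, and Pycard lies far below the other 9 genes in all 8 libraries.

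At 6 h the top of this order was the other way round. Ninj1 stood at 231 TPM in the 10panx1 library and 248 TPM in the control library, above Nlrp3 at 208 and 176 TPM. The ratio of Nlrp3 to Ninj1 within a library, which no scaling between libraries touches, was 1.55, 1.73 and 1.57 in the 10panx1 libraries and 1.47, 1.38 and 1.4 in the control libraries at 9 h. It was 0.901 in the 10panx1 library and 0.709 in the control library at 6 h. All 6 libraries at 9 h thus had more Nlrp3 than Ninj1 transcript and both libraries at 6 h had less.

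The comparison of the blocker with its control at 9 h asks whether the transcripts of the machinery differ when pannexin 1 channels are blocked. Gsdme, a gasdermin that caspase 3 cleaves, rose with 10panx1, and the other 8 tested genes were not called. Gsdme had 20, 20.4 and 21.2 CPM in the 10panx1 libraries, against 15.6, 17.3 and 13.9 CPM in the control libraries at 9 h. In bulk RNA, fewer cells of a type and less RNA per cell cannot be told apart. The groups did not overlap, and control library 3, the one that stood apart, was the lowest. The difference was 0.40 on the log2 scale (SE 0.092, 95% interval 0.20 to 0.59), or 1.32-fold, with an adjusted p of 0.0153 (edgeR quasi-likelihood, Benjamini-Hochberg over 13392 genes). Over all genes tested, 9.21% were called (5.06% higher and 4.14% lower), so 1 call among 9 tested members is close to the background. Of the 9 tested members, 1 had groups that did not overlap, against 29.0% of all tested genes. Without control library 3 the Gsdme difference was 0.32 with an adjusted p of 0.0709, without 10panx1 library 3 it was 0.37 (0.066) and without control library 1 it was 0.39 (0.0513). On log2(TPM + 1) it was 0.37 with an adjusted p of 0.0682 by limma, and Gsdme was not called on log2(TPM + 0.1) either. Over 14 alternatives the adjusted p ran from 0.00212 to 0.0709 and the call was kept in 9.

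The opposite strand of Gsdme carries an overlapping gene, Pals2, a scaffold protein. The strand setting of the counting is not given in the sources used here, so reads of such a pair cannot be told apart. Pals2 had 197 to 205 CPM in the 10panx1 libraries and 193 to 199 CPM in the control libraries at 9 h, a log2 difference of 0.031 (adjusted p 0.717 by edgeR). Within a library, the ratio of Gsdme to Gsdmd in TPM was 0.143, 0.151 and 0.16 in the 10panx1 libraries and 0.12, 0.128 and 0.1 in the control libraries at 9 h. The 10panx1 libraries lay above all control libraries in this ratio.

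Nlrp3 had 386, 421 and 370 CPM in the 10panx1 libraries and 376, 349 and 343 CPM in the control libraries at 9 h. The groups overlapped, with the lowest 10panx1 library under the highest control library. The log2 difference was 0.14 (95% interval 0.027 to 0.26) with an adjusted p of 0.117 by edgeR, which did not pass. It passed in the fit of all 8 libraries with time as a covariate, at 0.16 and an adjusted p of 0.043, and the adjusted p ran from 0.043 to 0.344 over 14 alternatives. Its partner Nek7 had 52.6, 43.9 and 46.2 CPM in the 10panx1 libraries, against 48.7, 48.3 and 47.1 CPM in the control libraries at 9 h, a log2 difference of -0.012 (95% interval -0.17 to 0.14).

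**Figure D2:**
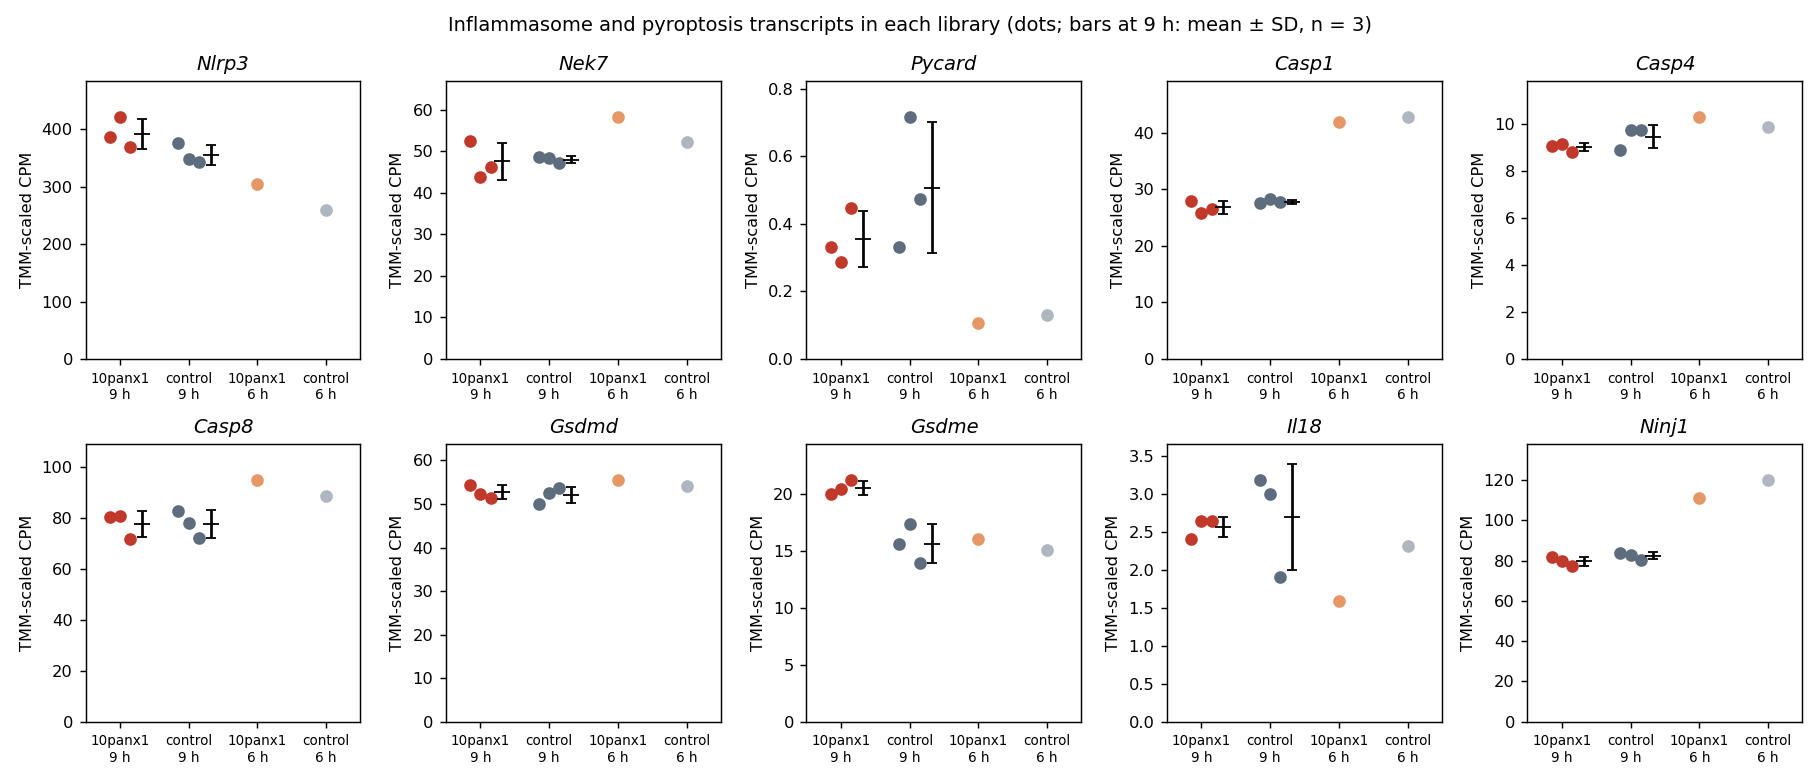
CPM of each of the 10 genes by library, in a panel per gene with its own axis from 0, where dots are libraries and bars give the mean ± SD of 3 libraries at 9 h. Gsdme is the gene with no overlap between 10panx1 (20 to 21.2 CPM) and control (13.9 to 17.3 CPM) at 9 h, and Nlrp3, Casp1 and Ninj1 differ between 9 h and 6 h in both treatments.

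The caspases lay close together in both groups at 9 h. Casp1 had 28, 25.8 and 26.5 CPM in the 10panx1 libraries and 27.5, 28.2 and 27.7 CPM in the control libraries. Casp4, which encodes mouse caspase 11, the receptor for cytosolic lipopolysaccharide, had 9.08, 9.17 and 8.84 CPM in the 10panx1 libraries and 8.91, 9.77 and 9.75 CPM in the control libraries. The groups overlapped for both genes. Casp8, the initiator of apoptosis through death receptors that also restrains necroptosis, had 80.1, 80.5 and 71.5 CPM in the 10panx1 libraries and 82.6, 78 and 71.9 CPM in the control libraries. The log2 differences were -0.053 (95% interval -0.21 to 0.10) for Casp1, -0.067 (-0.30 to 0.17) for Casp4 and -0.002 (-0.14 to 0.14) for Casp8. None was called, with adjusted p-values of 0.707, 0.763 and 0.99 by edgeR.

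Gsdmd had 54.4, 52.3 and 51.3 CPM in the 10panx1 libraries and 50.1, 52.4 and 53.7 CPM in the control libraries at 9 h. Ninj1 had 81.7, 79.9 and 77.3 CPM in the 10panx1 libraries, against 83.8, 83 and 80.3 CPM in the control libraries. Both genes overlapped between groups. Their log2 differences were 0.019 (95% interval -0.11 to 0.15) and -0.047 (-0.16 to 0.062), with adjusted p-values of 0.896 and 0.628 by edgeR. These intervals are narrower than that of Il18, the cytokine of the set, which rested on 36 to 67 counts per library. Il18 had 2.41, 2.64 and 2.64 CPM in the 10panx1 libraries and 3.18, 3 and 1.9 CPM in the control libraries at 9 h. Control library 3 was the lowest, and the log2 difference of -0.075 had a 95% interval of -0.55 to 0.40 and was -0.27 without that library. An overlapping gene on the opposite strand of Il18, Bco2, a carotenoid-cleaving enzyme, had 1.92 to 2.26 CPM in the 10panx1 libraries and 0.996 to 1.16 CPM in the control libraries, with an adjusted p of 0.0226 by edgeR. The median log2 difference of the 9 tested members was -0.012, beside -0.003 over all tested genes. Without control library 3 the differences of the 8 tested members other than Gsdme ran from -0.27 for Il18 to 0.11 for Nlrp3, and none was called.

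Pycard did not pass the filter on low counts at 9 h. Its counts were 7, 6 and 10 in the 10panx1 libraries and 7, 15 and 9 in the control libraries, and 2 and 3 in the 10panx1 and control libraries at 6 h. In all it took 59 of 167268286 counts. The exact Poisson interval of the highest library, control library 2 at 9 h, was 8.4 to 24.7 counts, and both libraries at 6 h were at or under the floor of 3 counts. The ratio of the summed counts per total at 9 h, 10panx1 over control, was 0.692, with an exact interval from counting error of 0.385 to 1.23. A difference between the treatments was not detectable at this depth.

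**Figure D3:**
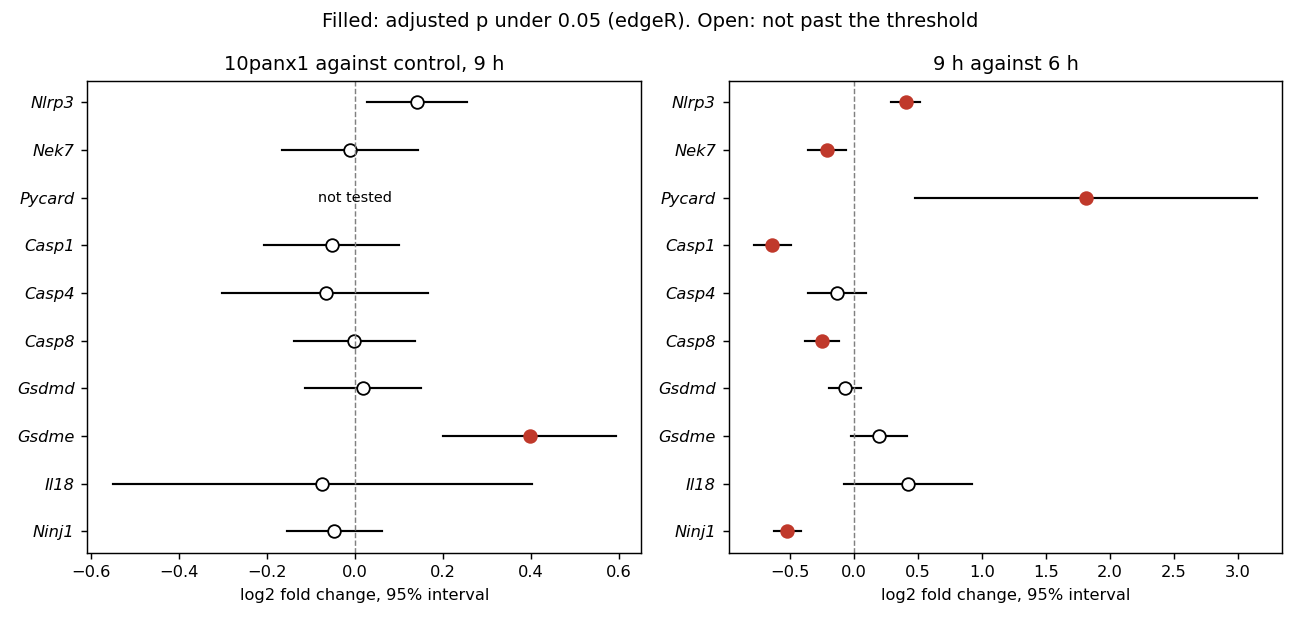
Log2 fold changes with 95% intervals (edgeR) of the 10 genes for 10panx1 over control at 9 h and for 9 h over 6 h, with filled markers where the adjusted p is under 0.05 and a dashed line at 0. In the first panel only Gsdme (0.40) is filled and Pycard has no value. In the second, Nlrp3 and Pycard are filled above 0 and Casp1, Ninj1, Casp8 and Nek7 below it.

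The comparison of 9 h with 6 h, with treatment as a covariate over all 8 libraries, asks how the same transcripts differed between the sampling times. Nlrp3 and Pycard rose and Casp1, Ninj1, Casp8 and Nek7 fell, so the sensor moved in the opposite direction to caspase 1 and the rupture protein Ninj1. The rise of the adaptor Pycard rests on 5 counts in all at 6 h and was not called in every alternative. Pycard passed the filter on low counts only through libraries at 9 h, where it was higher, and it is counted in both shares below. Nlrp3 had 370 to 421 CPM in the 10panx1 libraries and 343 to 376 CPM in the control libraries at 9 h, against 305 and 259 CPM in the 10panx1 and control libraries at 6 h. All libraries at 9 h lay above both at 6 h, a log2 difference of 0.40 (SE 0.0549, adjusted p 6.32e-06 by edgeR). Casp1 had 25.8 to 28.2 CPM at 9 h, against 41.9 CPM in the 10panx1 library and 42.7 CPM in the control library at 6 h. This was a log2 difference of -0.64 (SE 0.0686, adjusted p 4.07e-07 by edgeR), or 0.643 times the level at 6 h. Ninj1 had 77.3 to 83.8 CPM at 9 h, against 111 and 120 CPM in the 10panx1 and control libraries at 6 h, a log2 difference of -0.52 (SE 0.049, adjusted p 8.41e-08 by edgeR). These 3 calls held in all 14 alternatives, most of which use the same libraries at 6 h. With 1 library per treatment at 6 h, the p-values between the times rest mainly on the spread at 9 h. A shift shared by the libraries at 6 h for another reason cannot be told apart from time. The share of 6 of 10 members called compares with 63.1% of all 14315 genes tested (31.6% higher and 31.5% lower), and the share of 6 of 10 without overlap between the times compares with 61.2%, so neither share sets the members apart.

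Casp8 and Nek7 fell by smaller amounts that rest on the 10panx1 library at 6 h. Casp8 had 71.5 to 82.6 CPM at 9 h, against 94.8 CPM in the 10panx1 library and 88.7 CPM in the control library at 6 h, a log2 difference of -0.25 (SE 0.0625, adjusted p 0.00219 by edgeR). Nek7 had 43.9 to 52.6 CPM at 9 h, against 58.2 and 52.2 CPM in the 10panx1 and control libraries at 6 h, so that the times overlapped, with a log2 difference of -0.21 (SE 0.0715, adjusted p 0.0165). Without the 10panx1 library at 6 h the differences were -0.20 (adjusted p 0.0811, range over alternatives 0.000467 to 0.0811) for Casp8 and -0.13 (0.31, range 0.00666 to 0.31) for Nek7, and 3 of the 10 members were called. Without control library 3 at 9 h the differences were 0.42 for Nlrp3, -0.63 for Casp1, -0.50 for Ninj1, -0.23 for Casp8 and -0.20 for Nek7, all called, and Pycard did not pass the filter.

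Pycard had 54 counts over the 6 libraries at 9 h and 5 over the 2 libraries at 6 h. The ratio of counts per total was 3.35, with an exact interval from counting error of 1.35 to 10.7. The fitted log2 difference was 1.81 (SE 0.635, adjusted p 0.0193 by edgeR). Because Pycard passed the filter through its higher libraries at 9 h, this p-value is no independent evidence of a rise. Without the 10panx1 or the control library at 6 h the adjusted p was 0.0996 and 0.187, and over the 6 alternatives in which the gene was tested it ran from 0.0135 to 0.187. Gm45205, a predicted gene that overlaps Pycard on the opposite strand, had 9 to 19 counts in the libraries at 9 h and 3 in each library at 6 h, a log2 difference of 2.18 (adjusted p 0.00343). Reads of the pair cannot be told apart without the strand setting.

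Casp4, Gsdmd, Gsdme and Il18 were not called between the times. Casp4 had 8.84 to 9.77 CPM at 9 h, against 10.3 and 9.87 CPM in the 10panx1 and control libraries at 6 h, a log2 difference of -0.13 (95% interval -0.36 to 0.095). Gsdmd had 50.1 to 54.4 CPM at 9 h, against 55.5 and 54.2 CPM in the 10panx1 and control libraries at 6 h, a log2 difference of -0.071 (-0.20 to 0.054). On log2(TPM + 1) both were called lower, at -0.22 and -0.17 with adjusted p-values of 0.0212 and 0.008 by limma, where the median of all genes lay at -0.11 and 37.6% of the calls were higher, against 50.1% with TMM scaling. Over alternatives their adjusted p ran from 0.0204 to 0.716 and from 0.008 to 0.583. Gsdme had 13.9 to 21.2 CPM at 9 h and 16 and 15.1 CPM in the 10panx1 and control libraries at 6 h, a log2 difference of 0.20 (-0.021 to 0.42). Il18 had 1.9 to 3.18 CPM at 9 h and 1.59 and 2.31 CPM in the 10panx1 and control libraries at 6 h, a difference of 0.42 (-0.074 to 0.92). Without control library 3 at 9 h both were called higher, Gsdme at 0.25 (adjusted p 0.037, range over alternatives 0.037 to 0.81) and Il18 at 0.54 (0.0374, range 0.0374 to 0.597). Gsdme was also called without the control library at 6 h, at 0.36 (0.0475). The median log2 difference of the 10 members was -0.10, beside -0.001 over all tested genes.

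Within a library the ratio of Nlrp3 to Casp1 in TPM was 7.6, 9 and 7.71 in the 10panx1 libraries and 7.53, 6.83 and 6.84 in the control libraries at 9 h. It was 4.02 in the 10panx1 library and 3.35 in the control library at 6 h. The ratio of Gsdmd to Casp1 was 2.25 to 2.51 at 9 h, against 1.64 and 1.57 in the 10panx1 and control libraries at 6 h. Both ratios were higher in every library at 9 h than in either library at 6 h.

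No member was called for the interaction of treatment and time, that is, for a peptide effect at 9 h that differed from the one at 6 h. None of the 15331 genes tested was called by edgeR, although 874 (5.70%) had an unadjusted p under 0.05, and DESeq2 called 0 with 435 at that level. The Gsdme interaction was 0.31 on the log2 scale, with a 95% interval of -0.11 to 0.72 (adjusted p 0.914 by edgeR), so its difference at 9 h was not shown to differ from that at 6 h. The Nlrp3 interaction was -0.098 (-0.33 to 0.14).

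At 6 h there was 1 library per treatment, so the difference has no replicate check. The log2 ratio of 10panx1 to control was 0.24 for Nlrp3 (1.18-fold), 0.087 for Gsdme and -0.026 for Casp1. Il18, with 30 counts in the 10panx1 library and 53 in the control library, was the member whose log2 ratio (-0.52) passed 0.32 in size, and its ratio of counts per total was 0.677 with an exact counting interval of 0.417 to 1.08. Past that size, in either direction, were 1 of the 9 members tested at 9 h and 20.7% of all genes tested at 9 h.

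The genes whose pattern was most like that of Nlrp3 over the 8 libraries, by Pearson's r of log2(CPM + 1) among 10049 genes with a mean of at least 50 counts, were Cep170 (r = 0.989), a centrosomal protein, Mtmr14 (0.988), a phosphoinositide phosphatase, and Csnk2a1 (0.987), the catalytic subunit of casein kinase 2. The libraries share treatment, time and depth, and the values are a description. Mtmr14 had 56.6 to 60.7 CPM in the 10panx1 libraries and 51.4 to 55.1 CPM in the control libraries at 9 h, and 48.9 and 43.1 CPM in the 10panx1 and control libraries at 6 h. Its group means stood in the same order as those of Nlrp3, which follows from picking genes by likeness. The Nlrp3 groups at 9 h overlapped, unlike those of Mtmr14.

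The machinery was then set among 103 other genes of the pathway, in 10 lists. At 9 h, 84 were tested, of which 12 rose and 2 fell with 10panx1 (16.7%, against 9.21% of all genes). The lists were chosen with earlier results of these data known, so this share is no independent test of the pathway. Without control library 3, 12 rose and 1 fell, without 10panx1 library 3, 8 and 2, and without control library 1, 7 and 1. Between the times, 86 were tested, of which 32 rose and 25 fell at 9 h (66.3%, against 63.1% of all genes). Without the 10panx1 library at 6 h, 27 rose and 20 fell, and without the control library at 6 h, 26 and 18. The shares of all genes, 9.21% at 9 h and 63.1% between the times, are the background for each list below. A list with 1 call of 9 or 10 tested genes at 9 h is close to that background.

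**Figure D4:**
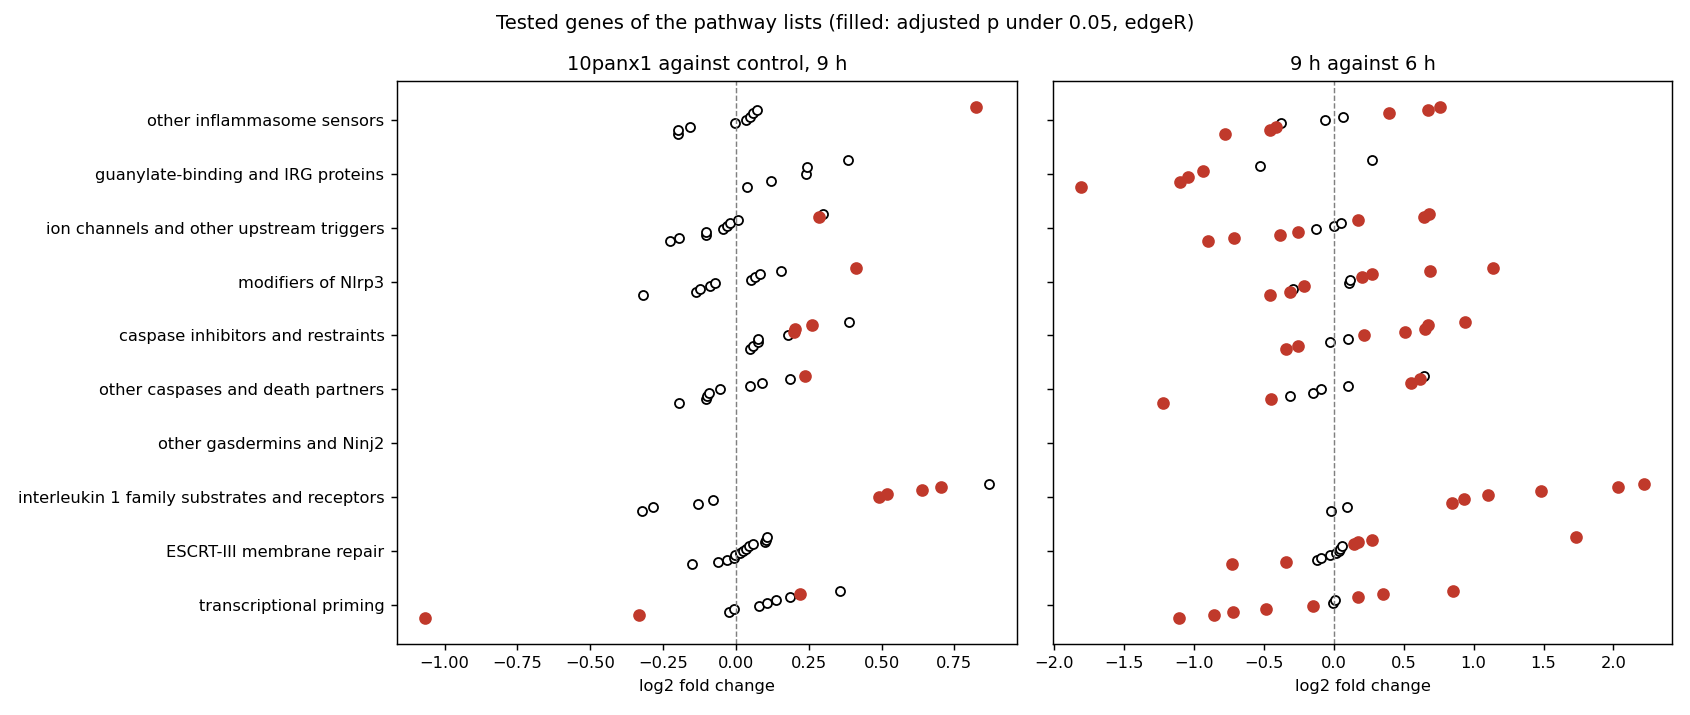
Log2 fold changes (edgeR) of the tested genes of the 10 pathway lists, in a row per list, for 10panx1 over control at 9 h and for 9 h over 6 h, with filled points where the adjusted p is under 0.05. Il18r1 and Gsdmc4, at 0 counts in at least 1 library at 6 h, are left out of the second panel. The row of interleukin 1 family genes has 4 filled points above 0 in the first panel and none below.

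The interleukin 1 family list holds Il1b, a substrate of caspase 1, with Il1a, antagonists and receptor genes. It had 4 of 9 tested genes higher with 10panx1 at 9 h and none lower, with a median log2 difference of 0.49, beside -0.003 over all genes. Il1b, the cytokine that caspase 1 matures, had 176 to 204 CPM in the 10panx1 libraries and 108 to 129 CPM in the control libraries at 9 h (0.70, SE 0.068, adjusted p 0.000441 by edgeR). Il1a, its relative that needs no cleavage to signal, had 79 to 96.7 CPM in 10panx1 libraries against 56.3 to 69.9 CPM in control libraries (0.49). Il18rap, a subunit of the receptor for interleukin 18, had 12.4 to 13.6 CPM in 10panx1 libraries against 7.97 to 9.15 CPM in control libraries (0.64). The fourth was Il1rn, the antagonist of the interleukin 1 receptor (0.52). The groups overlapped in none of these 4 genes. They were picked as called genes, so this cannot be set against the 29.0% of all tested genes without overlap. Il18 itself was not called. Of the 9 tested, 5 differences were positive and 4 negative. Il1rap was lower without overlap but not called, with 13 to 15.1 CPM in 10panx1 libraries against 16.3 to 19.8 CPM in control libraries (-0.32, adjusted p 0.06 by edgeR). The calls of Il1b, Il1a and Il18rap held in all 14 alternatives. Of the 9, 7 were higher at 9 h than at 6 h and none lower. Il1rn had 872 to 1600 CPM at 9 h, against 519 and 351 CPM in the 10panx1 and control libraries at 6 h (1.48), and Il1b was also higher (0.93). Il18r1 had no count in either library at 6 h and 0.474 to 1 CPM at 9 h.

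Genes that restrain caspases also had calls in 1 direction with 10panx1 at 9 h, 3 of 9 higher and none lower, with a median of 0.18. Cflar, the caspase 8 decoy c-FLIP, had 203 to 222 CPM in the 10panx1 libraries and 164 to 188 CPM in the control libraries (0.26). Birc3 (0.20) and Xiap (0.20), inhibitors of apoptosis proteins, were the others. The Birc3 call was lost without any 1 of the 6 libraries (0.17 to 0.22). The Cflar call was lost without 10panx1 library 3 (0.24) or control library 1 (0.20). The Xiap call was lost without 10panx1 library 2 (0.21) or 3 (0.16) and without control library 1 (0.14) or 2 (0.21). Between the times 5 of 9 rose and 2 fell, and Cflar (0.94) and Birc3 (0.68) were among the risers.

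Among 9 tested other sensors, Naip1, which recognizes the needle protein of bacterial secretion systems, rose with 10panx1 at 9 h, with 6.87 to 7.15 CPM in 10panx1 libraries against 3.37 to 4.43 CPM in control libraries (0.82, adjusted p 0.00423 by edgeR). The call was lost on log2(TPM + 1), at 0.59, and on log2(TPM + 0.1), at 0.80. Its near-identical paralogs make the assignment of its reads uncertain. Between the times 3 rose and 3 fell, among them Naip2 (0.68) and Nlrp1a (-0.78). The shares of sensors called at 9 h and between the times were close to those of all genes. The interferon-inducible guanylate-binding and IRG GTPases had no call of 5 tested at 9 h, while 4 of 6 fell between the times and none rose. Irgm1 had 3.05 to 5.52 CPM at 9 h, against 13.1 and 14.9 CPM in the 10panx1 and control libraries at 6 h (-1.81), and Igtp fell too (-1.04), a call lost without the control library at 6 h (-0.77).

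Of 10 ion channels and other upstream triggers, Clic1, a chloride channel, rose with 10panx1 at 9 h, with 354 to 396 CPM in 10panx1 libraries against 288 to 315 CPM in control libraries (0.28, adjusted p 0.00468 by edgeR). Between the times 3 rose and 4 fell, with Kcnk6, the potassium channel TWIK2, at -0.90 and Txnip, an inhibitor of thioredoxin that can bind Nlrp3, at -0.71. Of 10 tested modifiers of Nlrp3, Ptpn22, a phosphatase, rose with 10panx1 (0.41). Its call was lost without 10panx1 library 3 (0.37) or control library 1 (0.32). Between the times 4 modifiers rose and 3 fell, and Ptpn22 (1.14) and Usp47, a deubiquitinase (0.69), had the smallest p-values. The shares called in both lists were close to those of all genes, 9.21% at 9 h and 63.1% between the times.

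Of 9 tested other caspases and death partners, Mlkl, the pore of necroptosis, rose with 10panx1 at 9 h, with 135 to 147 CPM in 10panx1 libraries against 118 to 121 CPM in control libraries (0.24, adjusted p 0.007 by edgeR). Casp9, the initiator of the mitochondrial route of apoptosis, fell between the times, with 15.1 to 19.8 CPM at 9 h against 37.4 and 39.8 CPM in the 10panx1 and control libraries at 6 h (-1.22), and Ripk1, the kinase upstream of Casp8 and Mlkl, rose (0.62). Casp12 and Zbp1 had no count in any library. No other gasdermin and no Ninj2 passed the filter at 9 h. Gsdmc4 had 0 counts in the 10panx1 library and 1 count in the control library at 6 h and at most 13 counts at 9 h. The 13 genes of ESCRT-III repair, which sheds damaged membrane, had no call at 9 h, and between the times 4 rose and 2 fell, with Pdcd6ip at 0.27 and Chmp1b at -0.73.

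The priming list, which holds 7 transcription factors, the receptor Tlr4 and the adaptors Myd88 and Ticam1, had 1 call higher and 2 lower of 10 with 10panx1 at 9 h. Irf1, an interferon-regulated factor, had 3.31 to 4.4 CPM in the 10panx1 libraries and 7.81 to 8.44 CPM in the control libraries (-1.07, SE 0.147, adjusted p 0.0013 by edgeR). Irf2, known to drive transcription of Gsdmd, was lower (-0.33), a call lost without any 1 of the libraries at 9 h except 10panx1 library 3 (-0.37 to -0.29). Nfkb1, the p105 and p50 subunit of NF-kappaB, rose (0.22), a call lost without control library 1 (0.18). Between the times 3 rose and 5 fell, Tlr4 (-1.11) and Myd88 (-0.49) among the 5. Spi1, which encodes PU.1, had 92.3 to 111 CPM at 9 h, against 192 and 179 CPM in the 10panx1 and control libraries at 6 h (-0.86), and Irf8, a microglial factor known to drive the Naip genes, rose (0.85).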

How the data were processed

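Libraries were made from poly(A) RNA with a strand-marking kit, per the labels' protocols. The authors deposited whole-number read counts of each gene, not normalized, and TPM values, normalized by the authors for length and library total. FastQC, Trimmomatic, STAR, featureCounts, DESeq2 and GRCm38 are named without roles per the submitters' processing notes. How multiply mapping reads and strand were handled in counting is not given in the sources used here. Of 51933 nuclear genes compared, 2.73% started in the deposited table where the GRCm38 annotation has them, so the table's positions are printed without a build and were not compared with the RefSeq windows.

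Of 57010 rows, 151 repeated a symbol with identical values and were dropped. No pair of replicates at 9 h was a duplicate (chi-square per degree of freedom 4.03 to 7.04). Counts were tested with edgeR 4.0.16 in R 4.3.3 (TMM, filterByExpr, quasi-likelihood, Benjamini-Hochberg threshold 0.05). The comparison at 9 h used its 6 libraries. Times were compared over all 8, adjusting for treatment, and the interaction was fitted on the same 8. A prior count of 2 was added for the ratios at 6 h. Alternatives were RLE scaling, no filter, a mean of at least 10 counts, DESeq2 1.42.0, limma 3.58.1 with pseudocounts of 1 and 0.1 on log2 TPM (mean TPM 1 or more), a fit of all 8 libraries, a block for the replicate number, and each library left out in turn. The scripts were tested on simulated data.

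The members and lists were chosen with earlier results of these data known. All members are given in every library. From each list, up to 3 called genes with the smallest p at 9 h and up to 2 between the times are named. Besides these, Il1rap, Il18r1, Casp12, Zbp1, Tlr4, Myd88 and Ticam1 were named after their values were seen. The table held 103 of the 104 list entries. Plots and summaries used Python 3.11.15 with pandas 2.3.3, scipy 1.17.1 and matplotlib 3.10.9.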

Additional observations from a re-analysis of the deposited data

How the results depend on the processing

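At 9 h the count of 1233 called genes was 368 on log2(TPM + 1), 371 on log2(TPM + 0.1) and from 598 to 1433 with 1 library left out. With a replicate block it was 1850. Same-numbered libraries deviated together with correlations of 0.153, -0.011 and 0.103, and different-numbered ones with -0.169 to 0.074. Libraries 2 did not correlate best with their own number. The labels give no pairing, so the main fit did not pair the libraries, and whether the numbers mark pairs is not known. Members called at 9 h were 0 on both TPM scales, 2 in the fit of all 8 libraries and 0 to 1 with 1 library left out. Members called between the times were 3 to 7 with 1 library left out. Interaction calls were 34 with no filter, none of them a member, and 0 to 1 with 1 library left out. Directions near 0 turned at 9 h. Casp8 was 0.003 on both TPM scales, 0.021 with all 8 libraries and -0.053 to 0.050 with 1 library left out, and Nek7 was 0.030 with all 8 libraries and -0.091 to 0.041. Gsdmd was -0.011 to 0.039 and Il18 -0.268 to 0.057 with 1 library left out. In the interaction, Casp1 was -0.058 to 0.001, Gsdmd -0.044 to 0.008 and Pycard -0.444 to 0.125. The cause of these changes was not tested. Of the named list genes, 6 of 13 kept their call at 9 h in all alternatives run, and 17 of 19 between the times. On both TPM scales the calls at 9 h of Naip1, Cflar, Birc3, Xiap, Ptpn22 and Irf2 were lost. Depth limits Pycard and Il18, and 1 library per treatment limits 6 h.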
